A study of Mus musculus with 16 samples.

Results

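Glycolysis and lactate transport genes were taken here as a list of 34 genes: glucose transporters, the enzymes from hexokinase to lactate dehydrogenase, the enzymes that set fructose 2,6-bisphosphate, lactate transporters, and the gate of pyruvate into mitochondria. A member was measured when a row of the value table (a transcript cluster, the summary of the probes of 1 transcription unit) carried its symbol and no other, and where several rows did, the one of highest mean signal was used. By this rule 31 of the 34 members were found, among 20259 genes in all. Gpi1, Pfkfb1 and Eno1 had no such row and were not analysed here.

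RNA came from whole mouse retinas and was hybridised to Affymetrix Mouse Exon 1.0 arrays, 1 retina RNA sample to each of 16 arrays. The groups, of 4 biological replicates each, were retinas null for Gtf2ird1 (called BEN-NULL in the titles) at 4 months, wild-type (WT) retinas at 4 months, null retinas at 2 weeks and WT retinas at 2 weeks. No treatment was named. The older age is 4 months by title and by the account of RNA extraction, but 2 months by the account of how the mice were kept. Strain, sex and the design of the null allele were not given in the labels. GTF2IRD1, a DNA-binding relative of TFII-I, regulates transcription.

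Retina is known for making lactate from glucose even where oxygen is plentiful, and photoreceptors carry most of this aerobic glycolysis. Glucose crosses the retinal barriers through GLUT1, is split in the cytosol to pyruvate, and is then either reduced to lactate and exported with a proton by monocarboxylate transporters or burned after pyruvate dehydrogenase has fed it into mitochondria. Flux is set mainly at hexokinase, at phosphofructokinase, which fructose 2,6-bisphosphate activates, and at pyruvate dehydrogenase, which its kinases switch off.

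Of the 4 rows of Gtf2ird1, 3 had all null arrays (4.53 to 5.29, log2 signal) below all WT arrays (8.22 to 9.55) at both ages. Its remaining row, the one of highest signal, showed no loss: 10.38 to 10.60 in null and 10.24 to 10.32 in WT retinas at 2 weeks, and 10.24 to 10.42 in null and 10.16 to 10.41 in WT retinas at 4 months. The mean log2 signal of the 6 measured rod markers was between 12.33 and 12.62 on every array. From 2 weeks to 4 months their median difference was 0.16 in either genotype, with 2 called higher in WT and 0 in null retinas. The mean of 8 cone markers at 4 months was 9.34 to 9.50 in null and 9.55 to 9.64 in WT retinas, without overlap, with 1 marker called lower; at 2 weeks it was 9.31 to 9.56 in null and 9.42 to 9.85 in WT retinas, with 2 called lower. The mean of 7 microglia markers at 4 months was 5.81 to 5.99 in null and 5.67 to 5.75 in WT retinas, with 0 called by limma. The mean of 9 lens markers was 9.14 to 11.90 in null and 7.32 to 9.80 in WT retinas at 2 weeks, and 7.49 to 10.35 in null and 7.20 to 9.56 in WT retinas at 4 months. The mean of 10 pigment epithelium markers was 7.27 to 7.85 in null and 6.36 to 7.31 in WT retinas at 2 weeks. At 4 months that mean was 5.52 to 6.57 in null and 5.76 to 6.54 in WT retinas. Xist, which female cells transcribe, exceeded 8 on no null array and on 3 WT arrays (2 of 2 weeks and 1 of 4 months). All values below are log2 signals as deposited, differences are log2 differences ± limma's standard error, and called genes are those whose limma p, adjusted over all 20259 genes, was under 0.05.

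At 4 months few members separated null from WT. Pfkfb3, which makes the phosphofructokinase activator fructose 2,6-bisphosphate, was lower in null retinas and was the single member called. Slc16a3, Pfkl and Pgk1 also had all 4 null arrays below all 4 WT arrays, and did not pass the test. Of the 31 members, 0 were called higher, 1 was called lower and 30 did not pass, against 0.227% of all genes called higher, 0.183% called lower and 0.41% called in either direction. An unadjusted p under 0.05 was reached by 5 members, against 5.37% of all genes. The median difference of the members was -0.07, against -0.00 over all genes, and 20 of the 31 were negative. The cone and microglia means also separated the genotypes at this age, and their part in these differences was not tested. The cone list went both ways. Of its 8 markers 3 were higher in null, while Pde6h was lower, with medians of 6.27 in null and 7.50 in WT retinas.

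Pfkfb3 read 6.51, 6.61, 6.58 and 6.47 in the null retinas of 4 months, against 7.13, 6.87, 7.11 and 7.01 in the WT retinas of that age. No null array reached the lowest WT array. The difference was -0.49 ± 0.0937 (95% interval -0.69 to -0.29), 1.40-fold lower in null, with a limma adjusted p of 0.0268. It was -0.50 (adjusted p = 0.0326) with the lens mean as a covariate and -0.49 (adjusted p = 0.0431) with the pigment epithelium mean. The call was lost without any 1 of the 4 null arrays of 4 months or of WT replicates 1, 3 and 4 of that age, where the difference stayed between -0.51 and -0.45. It was also lost under eBayes with trend and robust settings. The other enzymes of this step, Pfkfb2 and Pfkfb4, differed by 0.11 ± 0.11 and 0.15 ± 0.126 in the opposite direction (adjusted p = 1 for both).

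Slc16a3 encodes MCT4, the lactate exporter typical of strongly glycolytic cells. It read 7.11, 7.25, 7.21 and 7.15 in null retinas of 4 months, against 7.87, 7.86, 7.62 and 7.48 in WT retinas. The groups did not overlap, and the null arrays spanned a narrower range than the WT arrays. The difference of -0.53 ± 0.115 (95% interval -0.77 to -0.29) had an adjusted p of 0.0583. The call was gained without null replicates 2 or 4 or WT replicate 1 of 2 weeks, or without WT replicate 4 of 4 months, and the difference over all 16 such omissions was -0.61 to -0.48. Without the 3 arrays with Xist signal it was -0.61 (adjusted p = 0.0329). The other lactate transporters were Slc16a1 (MCT1), with 0.01 ± 0.107, and Slc16a8 (MCT3, the transporter of the pigment epithelium), with -0.18 ± 0.138, and neither passed (adjusted p = 1 for both).

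Pfkl, the liver-type subunit of phosphofructokinase, read 10.22, 10.24, 10.21 and 10.42 in null retinas of 4 months, against 10.66, 10.74, 10.45 and 10.68 in WT retinas. The highest null array lay just under the lowest WT array. The difference was -0.36 ± 0.109 with an adjusted p of 0.343. The muscle-type subunit Pfkm (0.05 ± 0.18) and the platelet-type subunit Pfkp (-0.16 ± 0.0992) did not pass either.

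Pgk1, which makes the first ATP of the pathway, read 12.54, 12.62, 12.54 and 12.56 in null retinas of 4 months, against 12.82, 12.65, 12.79 and 12.69 in WT retinas. Here too the groups stood apart, by a small margin, and the difference was -0.17 ± 0.0709 (adjusted p = 0.742). The row that lies among rows of the gene's own chromosome read 12.04, 11.92, 11.90 and 12.04 in null retinas and 12.19, 12.11, 12.08 and 12.07 in WT retinas. That row gave -0.14 ± 0.121 (adjusted p = 1). Among the members 4 of 31 had groups that did not overlap, all with null lower. Of all genes 4.73% had such groups at this age, 2.53% with null higher and 2.2% with null lower.

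**Figure D1:**
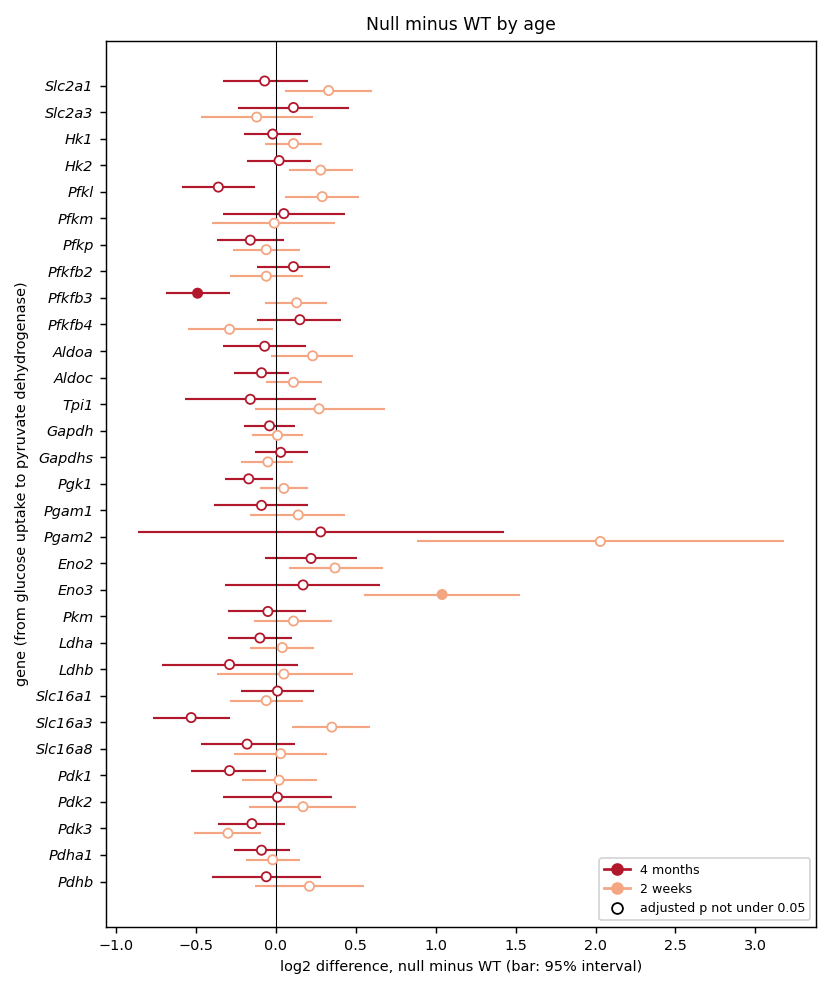
Log2 difference, null minus WT, of the 31 members (gene names, from glucose uptake at the top to pyruvate dehydrogenase at the bottom) at 4 months (dark red, upper mark of each gene) and 2 weeks (light orange, lower mark). Bars are 95% intervals and filled marks passed an adjusted p under 0.05: Pfkfb3 at 4 months (-0.49) and Eno3 at 2 weeks (1.04), while Pgam2 at 2 weeks has the widest interval (0.88 to 3.18).

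At 2 weeks the members with the largest differences were the muscle-type isoenzymes of lower glycolysis, Eno3 and Pgam2, with higher values in null. Eno3, the muscle enolase, was the single member called, and Pgam2, the muscle phosphoglycerate mutase, did not pass. Of the 31 members, 1 was called higher, 0 lower, and 30 did not pass, against 0.632% of all genes called higher, 0.425% called lower and 1.06% called in either direction. An unadjusted p under 0.05 was reached by 9 members, against 12.5% of all genes. The median difference was 0.11, against -0.02 over all genes, and 22 of the 31 were positive; after quantile normalization these were 0.07 and 20.

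Eno3 read 10.49, 11.21, 10.45 and 9.85 in null retinas of 2 weeks, against 9.02, 9.91, 9.68 and 9.23 in WT retinas. Null replicate 2 was the highest, and null replicate 4 lay below WT replicate 2, so the groups overlapped. The difference was 1.04 ± 0.231 (95% interval 0.55 to 1.53), 2.06-fold higher in null, with an adjusted p of 0.0398. Pgam2 read 7.49, 10.27, 7.77 and 6.28 in null retinas, against 6.02, 6.45, 5.92 and 5.30 in WT retinas. Replicate 2 stood far above the other null arrays. Its difference was 2.03 ± 0.541 (adjusted p = 0.0942).

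At 2 weeks the lens markers were high on the same null arrays. The lens mean was 10.43, 11.90, 10.58 and 9.14 in null replicates 1 to 4 of 2 weeks, against 8.44, 9.80, 8.68 and 7.32 in WT replicates 1 to 4. For Pgam2 and the lens mean, replicate 2 was the highest and replicate 4 the lowest in either genotype. Eno3 followed this in null, but in WT its lowest array was replicate 1. At 4 months the lens mean was 10.35, 7.49, 9.90 and 7.6 in null replicates 1 to 4, where Pgam2 read 5.97, 5.51, 5.46 and 5.72 and Eno3 9.60, 9.56, 9.82 and 9.36. The lens means of null replicates 1 and 3 of 4 months lay within the range of the null arrays of 2 weeks. On these arrays both genes lay below all null arrays of 2 weeks and within the range of the WT arrays of 2 weeks. The cause was not tested. At 2 weeks all 9 lens markers were higher in null, with a median difference of 2.07, and 0 of them were called by limma. With the lens mean as a covariate the difference of Eno3 was 0.59 (adjusted p = 0.362) and that of Pgam2 1.13 (adjusted p = 0.565). With the mean of the pigment epithelium markers, of which 9 of 10 were higher in null and 3 were called, Eno3 differed by 1.03 (adjusted p = 0.37). Of 7 muscle markers 0 were called by limma, and their mean was 5.73, 5.62, 5.66 and 5.86 in null and 5.92, 5.90, 5.90 and 5.76 in WT retinas of 2 weeks.

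**Figure D2:**
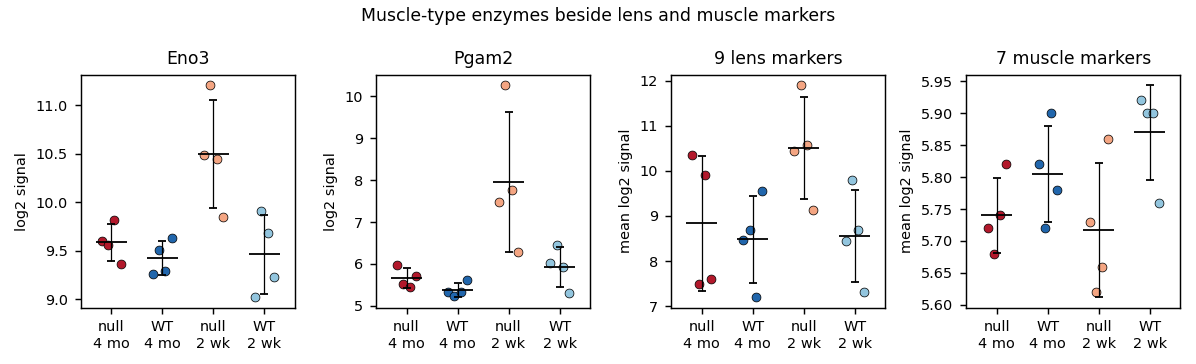
Log2 signal of Eno3 and Pgam2 and mean log2 signal of 9 lens and 7 muscle markers on each array (points), with the group mean and SD (lines), in null and WT retinas of 4 months and of 2 weeks. The null arrays of 2 weeks are high for Eno3 (9.85 to 11.21), Pgam2 (6.28 to 10.27) and the lens mean (9.14 to 11.90), while the muscle mean stays between 5.62 and 5.92 on every array.

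The call of Eno3 held without null replicate 4 or WT replicate 2 of 2 weeks or WT replicates 1 or 4 of 4 months, and was lost without any of the other 12 arrays. The difference was 0.80 without null replicate 2 of 2 weeks, and at most 1.26, without null replicate 4. Fitted on the 8 arrays compared, it was 1.04 with an adjusted p of 0.232, and without the 3 arrays with Xist signal 0.71 (adjusted p = 0.256). Pgam2 was called without null replicate 4 of 2 weeks (2.59, adjusted p = 0.0211), and its difference was 1.26 without null replicate 2. At 4 months the corresponding differences were 0.17 ± 0.231 for Eno3 and 0.28 ± 0.541 for Pgam2 (adjusted p = 1 for both).

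Slc2a1, the gene of GLUT1, was the only member whose groups did not overlap at 2 weeks. It read 11.62, 11.60, 11.51 and 11.94 in null retinas, against 11.39, 11.45, 11.33 and 11.18 in WT retinas. Every null array lay above every WT array, as in 3.14% of all genes, while 2.69% had null lower throughout and 5.82% separated in either direction. The difference of 0.33 ± 0.126 had an adjusted p of 0.28. At 4 months it read 11.37, 10.98, 11.29 and 11.07 in null retinas, against 11.58, 11.21, 11.13 and 11.07 in WT retinas, and the groups overlapped (-0.07 ± 0.126). At 2 weeks 7 of 8 endothelial markers were also higher in null, with 1 called. Their mean was 6.65 to 6.96 in null and 6.45 to 6.67 in WT retinas. Of 10 pigment epithelium markers 9 were higher in null at that age. The part of these cells in the difference of Slc2a1 was not tested.

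Hk2, the inducible hexokinase of photoreceptors, read 9.63, 9.75, 9.82 and 9.50 in null retinas of 2 weeks, against 9.53, 9.49, 9.27 and 9.31 in WT retinas. The lowest null array fell just under the highest WT array, and the difference was 0.28 ± 0.0945 (adjusted p = 0.22). Slc16a3 read 8.62, 8.29, 8.50 and 8.84 in null retinas, against 8.37, 8.26, 8.10 and 8.12 in WT retinas of that age. One null array lay among the WT arrays, and the difference, 0.35 ± 0.115 (adjusted p = 0.205), had the opposite sign to that at 4 months. Pfkl likewise differed by 0.29 ± 0.109 at 2 weeks (adjusted p = 0.271).

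Pdk3, a kinase that inactivates pyruvate dehydrogenase, had the lowest p among members lower in null at 2 weeks. It read 8.65, 8.37, 8.55 and 8.73 in null retinas, against 8.72, 9.0, 9.01 and 8.78 in WT retinas. The highest null array lay just above the lowest WT array, and the difference was -0.30 ± 0.0989 (adjusted p = 0.197). At 4 months it was -0.15 ± 0.0989. Pdk3 lies on the X chromosome, and Xist exceeded 8 on 2 WT arrays and 0 null arrays of 2 weeks. The difference at 2 weeks was called in no setting tried, the one without the Xist arrays included (-0.43 to -0.23). The remaining members of the pyruvate gate, Pdk1, Pdk2, Pdha1 and Pdhb, differed by -0.02 to 0.21 at 2 weeks and by -0.29 to 0.01 at 4 months, and none of them was called by limma at either age.

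Gapdh, Aldoc, Pkm and Ldha gave small differences by genotype, none of which passed. Gapdh, the redox step, differed by 0.01 ± 0.0764 at 2 weeks and -0.04 ± 0.0764 at 4 months, and the neuronal aldolase Aldoc by 0.11 ± 0.0821 and -0.09 ± 0.0821. Pkm, pyruvate kinase, differed by 0.11 ± 0.116 and -0.05 ± 0.116. Ldha, the lactate dehydrogenase subunit that favours lactate formation, differed by 0.04 ± 0.094 and -0.10 ± 0.094. The intervals of Gapdh, -0.15 to 0.17 at 2 weeks and -0.20 to 0.12 at 4 months, bound the difference of the row used alone. No row of Gapdh stood among rows of its own chromosome. Its other rows differed by 0.09 and 0.19 at 2 weeks and by -0.02 and -0.01 at 4 months. The intervals of Tpi1 (-0.13 to 0.68) and Pfkm (-0.40 to 0.37) at 2 weeks were wider. The sperm-type Gapdhs, the triose isomerase Tpi1, the ubiquitous mutase Pgam1, the heart-type subunit Ldhb, the neuronal glucose transporter Slc2a3 and the muscle-type aldolase Aldoa were not called either. Eno2, the neuronal enolase, differed by 0.37 ± 0.138 at 2 weeks (adjusted p = 0.265) and 0.22 ± 0.138 at 4 months.

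The change of the genotype difference between the ages was tested as an interaction. Of the 31 members 0 were called by limma, with 8 at an unadjusted p under 0.05, against 0.00987% of all genes called (0.00494% positive and 0.00494% negative) and 5.92% at that unadjusted p. The estimate was negative for 24 of the 31, with a median of -0.20 against 0.01 over all genes. In 17 members null was higher at 2 weeks and lower at 4 months, in 6 lower and then higher, in 5 higher at both ages and in 3 lower at both. The lowest p belonged to Slc16a3 (-0.88 ± 0.163, adjusted p = 0.124), Pfkfb3 (-0.61 ± 0.132, adjusted p = 0.194) and Pfkl (-0.65 ± 0.154, adjusted p = 0.261). Each of the 3 was called with array weights, with adjusted p of 0.0118, 0.0495 and 0.0386, and Slc16a3 without WT replicate 1 of 2 weeks as well (adjusted p = 0.0491).

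In null retinas 2 members rose and 10 fell between 2 weeks and 4 months, and 19 did not pass. The falls were those of Slc2a1, Pfkl, Pfkfb3, Pgk1, Pgam2, Eno3, Ldha, Slc16a3, Pdk1 and Pdha1, at steps from glucose uptake to pyruvate oxidation. The rises were those of Hk1 and Pfkfb4. The 19 that did not pass differed by -0.53 (Tpi1) to 0.32 (Pfkfb2). Of all genes 9.61% were called, 3.71% higher and 5.9% lower at 4 months. Groups did not overlap in 12 of the 31 members (2 higher and 10 lower at 4 months), and these were the 12 called. Of all genes 17.5% had such groups (7.69% higher and 9.82% lower at 4 months). An unadjusted p under 0.05 was reached by 17 members, against 22.7% of all genes. The median difference was -0.21, against -0.02 over all genes, and 23 of the 31 were negative. The balance of rises and falls over all genes turned with scaling. Of the called genes 38.6% were higher as deposited, 53.8% after quantile normalization and 55.6% after median centring. The members' median was -0.15 under either of these scalings, with 21 negative, and the called members were 3 higher and 9 lower, and 3 higher and 10 lower. In such whole-tissue RNA, fewer cells of a type and less RNA per cell cannot be told apart.

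Slc16a3 fell most clearly. It read 7.11, 7.25, 7.21 and 7.15 in null retinas of 4 months, against 8.62, 8.29, 8.50 and 8.84 in null retinas of 2 weeks. The groups were about 1 log2 unit apart at their nearest arrays. The difference was -1.38 ± 0.115, 2.61-fold lower at 4 months, with an adjusted p of 2.77e-06, and leaving out any 1 array kept the call (-1.47 to -1.29). In WT retinas it fell as well, with 7.87, 7.86, 7.62 and 7.48 at 4 months, against 8.37, 8.26, 8.10 and 8.12 at 2 weeks. That difference was -0.51 ± 0.115, 1.42-fold lower (adjusted p = 0.0116), and no array left out ended the call, although leaving out the 3 with Xist signal together did.

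Pfkfb3 read 6.51, 6.61, 6.58 and 6.47 in null retinas of 4 months, against 7.31, 7.32, 7.27 and 7.01 at 2 weeks. Replicate 4 of 2 weeks was the low one of its group and still lay above every array of 4 months. The difference was -0.68 ± 0.0937, 1.61-fold lower (adjusted p = 0.00029). In WT retinas Pfkfb3 read 7.13, 6.87, 7.11 and 7.01 at 4 months and 7.24, 7.09, 7.16 and 6.92 at 2 weeks, overlapping, with a difference of -0.07 ± 0.0937. Pfkfb4, an isoenzyme of the same step, went the other way: 6.56, 6.16, 6.23 and 6.31 in null retinas of 4 months, against 5.66, 6.05, 5.66 and 6.06 at 2 weeks. Its rise was 0.46 ± 0.126 (adjusted p = 0.0293), and it lost the call without null replicates 1 or 3 of 2 weeks or null replicates 1 or 4 of 4 months (0.38 to 0.52 over all omissions). In WT retinas Pfkfb4 differed by 0.03 ± 0.126.

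Pfkl read 10.22, 10.24, 10.21 and 10.42 in null retinas of 4 months, against 10.84, 10.64, 10.70 and 11.10 at 2 weeks. All arrays of 4 months were lower, and the difference was -0.55 ± 0.109, 1.46-fold lower (adjusted p = 0.00435). In WT retinas the arrays of 4 months (10.66, 10.74, 10.45 and 10.68) and of 2 weeks (10.69, 10.63, 10.44 and 10.36) overlapped, with a difference of 0.10 ± 0.109.

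Slc2a1 read 11.37, 10.98, 11.29 and 11.07 in null retinas of 4 months, against 11.62, 11.60, 11.51 and 11.94 at 2 weeks, a fall of 1.40-fold (-0.49 ± 0.126, adjusted p = 0.0208). The call was lost after quantile normalization (-0.38, adjusted p = 0.0787) and without null replicate 4 of 2 weeks or null replicates 2 or 4 of 4 months. Over all omissions it was -0.55 to -0.40. In WT retinas the difference was -0.09 ± 0.126.

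**Figure D3:**
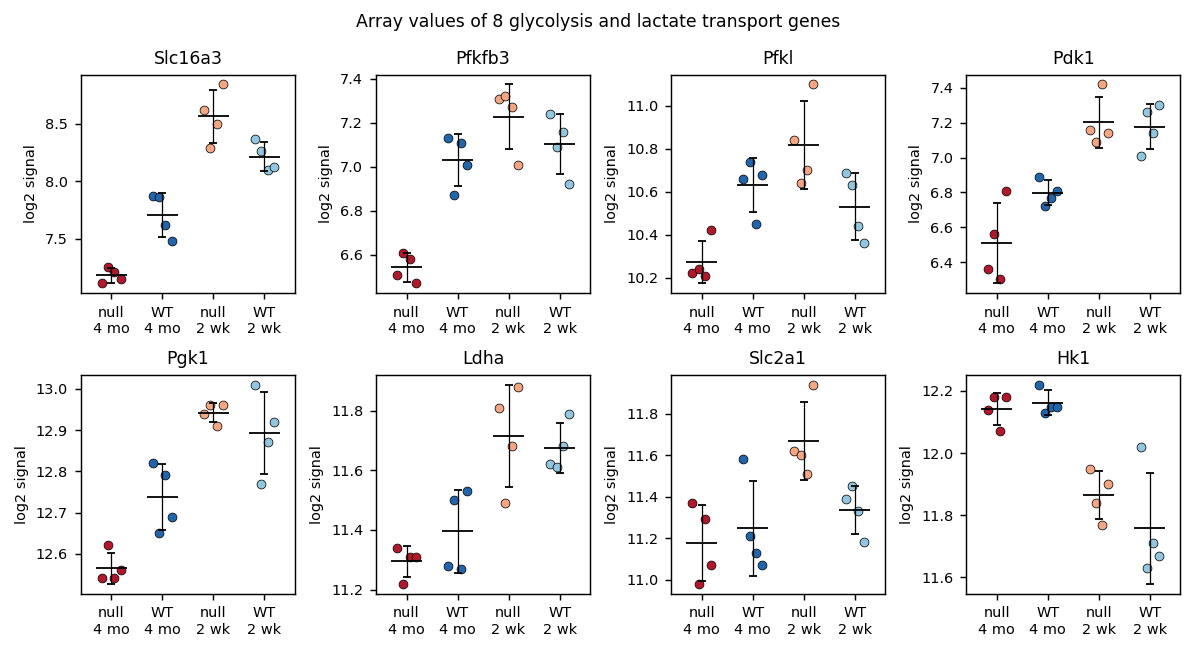
Log2 signal of 8 members on each array (points), with the group mean and SD (lines), in null and WT retinas of 4 months and of 2 weeks; each panel has its own scale. In Slc16a3, Pfkfb3 and Pgk1 the null arrays of 4 months are the lowest of all 16 arrays, and in Hk1 the arrays of 4 months of both genotypes lie above those of 2 weeks.

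In lower glycolysis Pgk1 fell in null retinas, with 12.54, 12.62, 12.54 and 12.56 at 4 months, against 12.94, 12.96, 12.91 and 12.96 at 2 weeks. Both groups were tight and stood apart. The difference was -0.38 ± 0.0709, 1.30-fold lower (adjusted p = 0.0029). Its row on the own chromosome gave -0.51 ± 0.121 (adjusted p = 0.0131) and its remaining row -0.55. In WT retinas the difference was -0.16 ± 0.0709 (adjusted p = 0.191).

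Eno3 and Pgam2 also fell in null retinas. Eno3 read 9.60, 9.56, 9.82 and 9.36 at 4 months, against the values of 2 weeks given above, a difference of -0.91 ± 0.231 (adjusted p = 0.0193). The call of Eno3 was lost without null replicate 4 of 4 months (-0.84, adjusted p = 0.0629). Pgam2 read 5.97, 5.51, 5.46 and 5.72 at 4 months, and its difference was -2.29 ± 0.541 (adjusted p = 0.013). Without null replicate 2 of 2 weeks Pgam2 differed by -1.52 (adjusted p = 0.00497). With the lens mean as a covariate neither was called: Eno3 differed by -0.53 (adjusted p = 0.144) and Pgam2 by -1.52 (adjusted p = 0.105). The lens mean itself was 7.49 to 10.35 in null retinas of 4 months and 9.14 to 11.90 in those of 2 weeks.

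Ldha read 11.34, 11.22, 11.31 and 11.31 in null retinas of 4 months, against 11.81, 11.49, 11.68 and 11.88 at 2 weeks, and 11.28, 11.50, 11.27 and 11.53 in WT retinas of 4 months, against 11.62, 11.61, 11.68 and 11.79 at 2 weeks. The ages did not overlap in either genotype. The differences were -0.42 ± 0.094 in null (adjusted p = 0.009) and -0.28 ± 0.094 in WT (adjusted p = 0.0732). The call depended on the row. The row of Ldha on its own chromosome read 11.37, 11.40, 11.24 and 11.39 in null retinas of 4 months, against 11.41, 11.68, 11.50 and 11.69 at 2 weeks, and differed by -0.22 ± 0.143 (adjusted p = 0.414). In WT retinas that row differed by -0.08 ± 0.143 (adjusted p = 0.783).

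At the pyruvate gate Pdk1, a kinase that turns pyruvate dehydrogenase off, fell in both genotypes. In null retinas it read 6.36, 6.56, 6.30 and 6.81 at 4 months, against 7.16, 7.09, 7.42 and 7.14 at 2 weeks (-0.70 ± 0.111, adjusted p = 0.000876). In WT retinas it read 6.89, 6.72, 6.77 and 6.81 at 4 months, against 7.01, 7.26, 7.14 and 7.30 at 2 weeks (-0.38 ± 0.111, adjusted p = 0.0406). No array of 4 months reached an array of 2 weeks in either genotype. Pdha1, the catalytic subunit that Pdk1 phosphorylates, read 9.16, 9.09, 9.22 and 9.04 in null retinas of 4 months, against 9.54, 9.42, 9.51 and 9.46 at 2 weeks (-0.35 ± 0.0819, adjusted p = 0.0114). In WT retinas Pdha1 read 9.13, 9.12, 9.25 and 9.37 at 4 months, against 9.36, 9.45, 9.61 and 9.59 at 2 weeks (-0.29 ± 0.0819, adjusted p = 0.0378), with 1 array of 4 months just above the lowest of 2 weeks. Both WT calls depended on single arrays and on the setting. That of Pdk1 was lost without any of WT replicates 2, 3 and 4 of 2 weeks, WT replicates 1 to 4 of 4 months or null replicate 1 of 2 weeks (-0.44 to -0.34 over all omissions). That of Pdha1 was lost without any of WT replicates 2, 3 and 4 of 2 weeks, WT replicates 1, 2 and 3 of 4 months or null replicate 1 of 4 months (-0.34 to -0.25). Both were also lost with median centring, with only the arrays compared, with trend and robust settings, with the replicate block and with the pigment epithelium covariate, and that of Pdk1 without the Xist arrays. The adjusted p under these settings was 0.0548 to 0.132 for Pdk1 and 0.0523 to 0.142 for Pdha1.

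Of the hexokinases, Hk1 rose with age in both genotypes and Hk2 in WT retinas. Hk1, the constitutive brain-type hexokinase, read 12.14, 12.18, 12.07 and 12.18 in null retinas of 4 months, against 11.95, 11.84, 11.77 and 11.90 at 2 weeks (0.28 ± 0.0847, adjusted p = 0.0478). In WT retinas Hk1 read 12.22, 12.13, 12.15 and 12.15 at 4 months, against 12.02, 11.63, 11.71 and 11.67 at 2 weeks (0.41 ± 0.0847, adjusted p = 0.00685). The ages were separate in both genotypes. The call in null was lost on omission of any array other than WT replicates 1 and 2 of 2 weeks (0.25 to 0.31), whereas the WT call was kept in each. The WT call was lost with only the 8 arrays compared (adjusted p = 0.0581), and the call in null with the replicate block (adjusted p = 0.0544). The row of Hk1 on its own chromosome gave 0.46 ± 0.144 in null (adjusted p = 0.053) and 0.50 ± 0.144 in WT retinas (adjusted p = 0.0404). Hk2 rose in WT retinas, with 9.76, 9.86, 9.65 and 9.81 at 4 months, against 9.53, 9.49, 9.27 and 9.31 at 2 weeks (0.37 ± 0.0945, adjusted p = 0.0216). That call was lost without WT replicates 3 or 4 of 2 weeks or WT replicates 2 or 4 of 4 months (0.33 to 0.41). It was also lost with only the arrays compared (adjusted p = 0.0613), without the Xist arrays (adjusted p = 0.0773) and with the pigment epithelium covariate (adjusted p = 0.0623). In null retinas Hk2 read 9.61, 9.87, 9.76 and 9.91 at 4 months and 9.63, 9.75, 9.82 and 9.50 at 2 weeks, overlapping, and differed by 0.11 ± 0.0945.

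In WT retinas 5 of the 31 members were called with age, 2 higher and 3 lower, and 26 did not pass, with differences of -0.54 (Pgam2) to 0.22 (Pgam1). Of all genes 9.19% were called, 4.38% higher and 4.81% lower, and of these called genes 47.7% were higher as deposited, 54.6% after quantile normalization and 60.1% after median centring. The median difference of the members was -0.07, against -0.04 over all genes. Hk1, Pdha1, Pdk1 and Slc16a3 were called in both genotypes, Hk2 was called in WT alone, and the other 8 in null alone, while the interaction, the test of that difference, was called for none of them by limma. Age groups of WT retinas did not overlap in 5 members (Hk1, Hk2, Ldha, Slc16a3 and Pdk1), against 12.7% of all genes (5.83% higher and 6.91% lower at 4 months). An unadjusted p under 0.05 was reached by 8 members, against 23.1% of all genes.

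**Figure D4:**
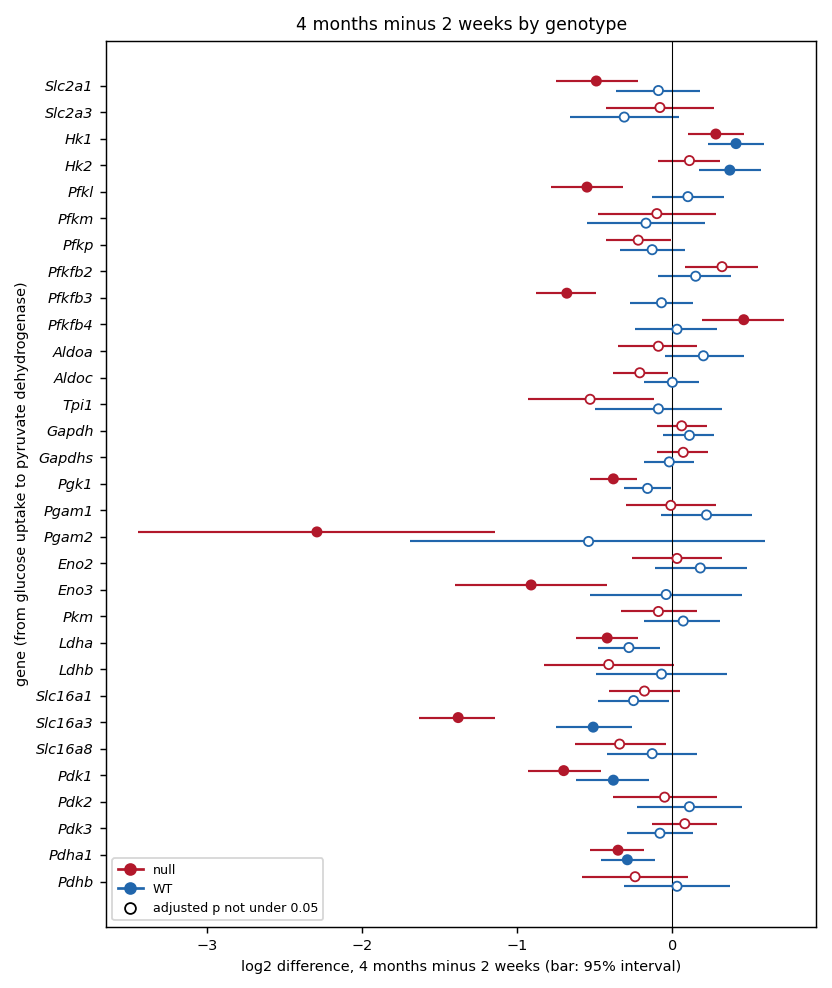
Log2 difference, 4 months minus 2 weeks, of the 31 members (gene names, from glucose uptake at the top to pyruvate dehydrogenase at the bottom) in null (red, upper mark of each gene) and WT retinas (blue, lower mark). Bars are 95% intervals and filled marks passed an adjusted p under 0.05, which 12 members did in null and 5 in WT retinas; Slc16a3 (-1.38 and -0.51) and Pdk1 (-0.70 and -0.38) are filled on the negative side in both.

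The markers of other cells moved with age in null retinas too, though for rods 0 of 6 markers were called. Of 8 cone markers 1 was called lower and 1 higher. The pigment epithelium mean was 6.21, 5.52, 6.57 and 6.52 in null retinas of 4 months, against 7.85, 7.27, 7.56 and 7.50 at 2 weeks, so that the ages did not overlap. None of its 10 markers was higher at 4 months in null, 6 were called lower and the median difference was -1.34; in WT retinas 2 were called lower and the median was -0.25. Of 8 endothelial markers 4 were called lower and 1 higher in null retinas, and 3 lower and 1 higher in WT retinas. Of 7 Muller glia markers 2 were called lower and 0 higher in either genotype. Their mean in null retinas was 9.83 to 9.96 at 4 months and 9.97 to 10.24 at 2 weeks. Of 7 inner retinal neuron markers 2 were called lower in null, and 2 lower and 1 higher in WT retinas. Their mean in null retinas was 8.60 to 8.79 at 4 months and 8.84 to 9.03 at 2 weeks. Of 7 microglia markers 2 were called lower in null and 3 in WT retinas. The part of these lists in the members' changes was not tested. With the pigment epithelium mean as a covariate 1 of the 12 calls in null was kept, that of Slc16a3 (-1.34, adjusted p = 0.0115), as calls over all genes fell to 101. Under that covariate Pfkfb3 differed by -0.63 (adjusted p = 0.117), Pdk1 by -0.61 (adjusted p = 0.224), Pfkl by -0.44 (adjusted p = 0.417) and Slc2a1 by -0.24 (adjusted p = 0.772). With the lens mean 6 calls were kept: Slc16a3, Pfkfb3, Pdk1, Pgk1, Pfkl and Ldha.

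Rows of 8 members needed a closer look, because several rows carried their symbol. For 6 members (Gapdh, Hk1, Ldha, Ldhb, Pgk1 and Pkm) the chosen row stood in the table among rows of another chromosome, as it did for 1063 of all genes. For 5 of these, all but Gapdh, another row stood among rows of the own chromosome. The members on such rows are uncertain where near-identical copies exist, since signal from a gene and its copy cannot be told apart. Using the rows of the own chromosome, a choice made after the data were seen, 10 members were called with age in null retinas and 5 in WT retinas. Hk1 and Ldha were those that lost the call in null retinas. With the chosen rows the counts were 12 and 5, where 9.61% and 9.19% of all genes were called. The row of Ldhb, the lactate dehydrogenase subunit that favours lactate use, on its own chromosome differed by -0.66 ± 0.216 between null and WT at 4 months (adjusted p = 0.453), against -0.29 ± 0.2 in the chosen row.

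**Figure D5:**
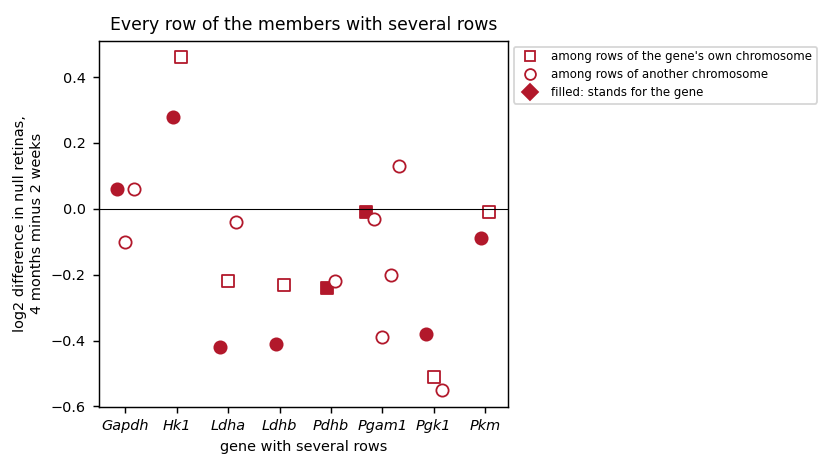
Log2 difference in null retinas, 4 months minus 2 weeks, for every row of the 8 members with several rows; squares stand among rows of the gene's own chromosome, circles among those of another, and filled marks stand for the gene. All 3 rows of Pgk1 lie between -0.55 and -0.38, while those of Ldha run from -0.42 to -0.04.

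Promoters are shown for Slc16a3, Pfkfb3, Pfkl and Pgk1, the 4 members whose null arrays of 4 months lay below all WT arrays of that age and which also fell with age in null retinas. Each sequence runs 5′ to 3′ on the gene's strand from 250 bases before to 50 bases after the start of the first transcript entry, from RefSeq on GRCm38.p6. Capitals mark ACGTG or GCGTG, the core of the hypoxia response element, on either strand, with overlapping matches joined. Slc16a3 is at chr11:120948817-120949116 on the plus strand, Pfkfb3 at chr2:11553880-11554179 on the minus strand, Pfkl at chr10:78009758-78010057 on the minus strand and Pgk1 at chrX:106186850-106187149 on the plus strand.
Slc16a3: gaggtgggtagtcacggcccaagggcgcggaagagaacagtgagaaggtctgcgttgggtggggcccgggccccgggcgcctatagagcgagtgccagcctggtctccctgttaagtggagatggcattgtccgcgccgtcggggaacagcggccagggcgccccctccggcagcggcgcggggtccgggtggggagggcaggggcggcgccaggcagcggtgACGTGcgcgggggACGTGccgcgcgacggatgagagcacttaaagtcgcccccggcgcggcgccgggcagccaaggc
Pfkfb3: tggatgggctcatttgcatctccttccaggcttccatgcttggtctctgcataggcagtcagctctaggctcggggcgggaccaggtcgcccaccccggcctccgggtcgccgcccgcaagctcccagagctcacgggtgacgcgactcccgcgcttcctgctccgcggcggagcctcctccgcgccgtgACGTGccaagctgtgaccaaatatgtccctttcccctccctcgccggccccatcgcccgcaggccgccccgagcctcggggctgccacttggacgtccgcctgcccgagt
Pfkl: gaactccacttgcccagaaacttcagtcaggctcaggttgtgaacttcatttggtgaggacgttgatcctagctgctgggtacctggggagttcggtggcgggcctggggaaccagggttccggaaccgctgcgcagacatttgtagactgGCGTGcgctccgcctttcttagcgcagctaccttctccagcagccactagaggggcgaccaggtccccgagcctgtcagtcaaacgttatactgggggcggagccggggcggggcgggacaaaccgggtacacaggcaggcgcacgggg
Pgk1: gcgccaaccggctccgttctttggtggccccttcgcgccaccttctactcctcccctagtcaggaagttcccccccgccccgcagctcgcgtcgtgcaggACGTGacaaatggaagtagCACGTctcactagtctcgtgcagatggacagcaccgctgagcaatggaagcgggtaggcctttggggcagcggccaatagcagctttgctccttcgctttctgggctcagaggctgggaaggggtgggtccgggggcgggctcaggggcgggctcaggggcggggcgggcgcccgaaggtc

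Counting the first entry of each gene, these windows held 2 matches in Slc16a3, 1 in Pfkfb3, 1 in Pfkl and 2 in Pgk1. The hypoxia response core was present in 24 of the 33 members with a promoter entry (72.7%), against 43.8% of the first entries of 27025 genes. Of these 33 members 30 were measured, while Gpi1, Pfkfb1 and Eno1 were not. The core was present in 9 of the 10 measured members that fell with age in null retinas. GGATTA, searched on both strands, the core known for repeats of the GTF2IRD1 protein and shared with the photoreceptor factor CRX, was present in 3 of the 33 (9.09%), namely Pfkfb4, Aldoc and Pfkp, against 7.16% of the first entries of all genes. It was present in the first entry of 0 of the 10 that fell. Counting any entry, it was present in 5 of the 33 (15.2%), with Pfkm and Ldha added, against 8.14% of all genes, and Ldha is among the 10 that fell. Both forms of the hypoxia response core contain CG, and the windows compared were not matched for base composition. A match describes letters in a window and is not a measured site.

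Around the members, 46 of 50 listed genes of neighbouring pathways were measured: other transporters, further isoenzymes, gluconeogenesis, the rest of the pyruvate dehydrogenase complex, the pentose phosphate pathway, rod-derived cone viability factors and regulators. Between null and WT at 4 months 0 were called higher and 1 lower (2.17%), against 0.41% of all genes called. This was Nxnl2, a thioredoxin-like relative of the rod-derived factor (Nxnl1) that is known to raise glucose uptake by cones. Nxnl2 read 8.58, 9.0, 9.25 and 8.94 in null retinas of 4 months, against 9.93, 9.90, 10.13 and 9.78 in WT retinas. The groups stood well apart, and the difference was -0.99 ± 0.142, 1.99-fold lower (adjusted p = 0.00244), kept on omission of any array (-1.09 to -0.87). At 2 weeks Nxnl2 read 10.02, 9.64, 9.86 and 10.25 in null retinas, against 10.45, 10.16, 10.30 and 10.20 in WT retinas, overlapping (-0.33 ± 0.142, adjusted p = 0.346). Nxnl1 itself differed by -0.11 ± 0.113 at 4 months and by -0.20 ± 0.113 at 2 weeks. At 2 weeks 0 of the 46 were called by limma, with 5 at an unadjusted p under 0.05, against 1.06% of all genes called and 12.5% at that unadjusted p.

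With age 3 of the 46 rose and 4 fell in null retinas, and 3 rose and 2 fell in WT retinas. These shares, 15.2% and 10.9%, stood against 9.61% of all genes called in null and 9.19% in WT retinas. Txnip, which restrains glucose uptake, fell in both. It read 5.74, 5.41, 5.60 and 5.52 in null retinas of 4 months, against 6.78, 6.33, 7.32 and 6.76 at 2 weeks (-1.23 ± 0.233, adjusted p = 0.00325). In WT retinas Txnip read 5.69, 5.77, 5.19 and 5.85 at 4 months, against 6.33, 7.32, 6.68 and 7.44 at 2 weeks (-1.32 ± 0.233, adjusted p = 0.00244). The ages did not overlap in either genotype, and the interaction was 0.09 ± 0.33 (95% interval -0.61 to 0.79). In both genotypes the values of 4 months lay near the array medians over all rows (5.31 to 5.55). Whether background signal bounded the fall or the interaction was not tested.

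Slc16a7, the high-affinity monocarboxylate transporter MCT2, fell in null retinas (-0.86 ± 0.192, adjusted p = 0.00904) and in WT retinas (-0.79 ± 0.192, adjusted p = 0.0162). Its WT call was lost without WT replicate 3 of either age, with only the arrays compared and with the pigment epithelium covariate. Slc2a12, a further glucose transporter, fell in null retinas (-0.79 ± 0.21, adjusted p = 0.0246), a call lost without null replicates 1 or 3 of 2 weeks or null replicate 2 of 4 months. Nxnl2 was the last of the falls in null retinas (-1.0 ± 0.142, adjusted p = 0.000379).

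Among the rises, Rpe, the ribulose phosphate epimerase of the pentose phosphate pathway, was called in null (0.69 ± 0.184, adjusted p = 0.0247) and in WT retinas (0.77 ± 0.184, adjusted p = 0.0151). The call of Rpe was lost in null without null replicate 2 of 2 weeks or null replicates 2, 3 or 4 of 4 months, and in WT without WT replicate 2 of 4 months. Pdp2, a phosphatase that turns pyruvate dehydrogenase back on, rose in null retinas, with 8.0, 8.23, 7.89 and 7.92 at 4 months, against 7.35, 7.18, 7.47 and 7.30 at 2 weeks. The ages stood apart (0.68 ± 0.12, adjusted p = 0.00188). Arnt, the partner of the hypoxia-inducible factors, rose in null retinas (0.36 ± 0.082, adjusted p = 0.0105). In WT retinas the lactonase Pgls (0.70 ± 0.145, adjusted p = 0.00694) and Epas1, a hypoxia-inducible factor (0.38 ± 0.112, adjusted p = 0.0415), rose as well. The call of Epas1 was lost on omission of 9 of the 16 arrays: null replicate 1 and WT replicates 1, 2 and 3 of 2 weeks, and null replicates 1 and 4 and WT replicates 2, 3 and 4 of 4 months (0.34 to 0.46 over all omissions). It was also lost with only the arrays compared, with the replicate block, without the Xist arrays and with the pigment epithelium covariate. Hif1a, Egln3, Tigar, Myc and Ppargc1a were not called in any of these comparisons. With the pigment epithelium mean as a covariate all 7 calls in null retinas with age were lost, as were most over all genes. The differences were then -0.91 for Nxnl2, -0.89 for Txnip, -0.84 for Slc16a7, 0.03 for Slc2a12, 0.39 for Pdp2, 0.83 for Rpe and 0.34 for Arnt (adjusted p of 0.142 to 0.987). With the lens mean Nxnl2, Txnip and Pdp2 were still called, and Slc16a7 (-0.79), Slc2a12 (-0.55), Rpe (0.51) and Arnt (0.29) were not.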

How the data were processed

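Per the submitters' processing notes, the authors used Partek and RMA, with mm8 as the build and no versions stated. Each deposited value is a log2 signal of 1 row on 1 array, with the log base inferred from the range (3.76213 to 15.7311). Array medians lay between 5.31 and 5.55, and no further scaling was applied. Of 115830 rows, 25539 carried 1 gene symbol in the platform annotation, 2300 several and 87991 none.

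All 16 arrays entered 1 limma model (limma 3.58.1, R 4.3.3, lmFit and eBayes) of 4 group means, with p-values adjusted by Benjamini-Hochberg over 20259 genes. P-values measure the spread between the labelled biological replicates, pooled over the groups; the number of arrays limits precision, and no detection call was used. A row was placed by the chromosomes of 15 single-symbol rows on each side. Values are given for each array for members called in any comparison and the 3 members of lowest p between genotypes; pathway genes are named where called. The members, lists and tests were chosen with earlier results of these data known. The fitting procedure was tested on simulated data. Alternatives were other scalings, filters, rows, moderation, thresholds, array weights, a replicate block, lens and pigment epithelium covariates, and leaving out arrays; the row of the own chromosome was added after the data were seen. Promoters are RefSeq's on GRCm38.p6; no coordinates were converted from mm8.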

Additional observations from a re-analysis of the deposited data

Results flagged for a closer look

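In 124 groups of 4 arrays (31 members in 4 groups), 2 had an array set apart from the other 3 beyond Dixon's 95% critical value; chance gives about 1 in 20 groups. Pfkfb2 read 10.09 in WT replicate 4 of 4 months, against 10.23 to 10.25 in the other WT arrays of that age, a gap of 0.872 of the group's range. Pfkfb3 read 7.01 in null replicate 4 of 2 weeks, against 7.27 to 7.32 in the other null arrays, a gap of 0.859 of the range. Without that array the fall of Pfkfb3 with age in null retinas was still called.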

How the results depend on the processing

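Of 590 settings tried on single genes, 474 kept direction and side of the threshold, 103 lost the call, 13 gained it and 0 reversed. Members called between null and WT at 2 weeks (1 as reported) were 0 with only the arrays compared, without the arrays with Xist signal, or with either covariate, and 2 at an adjusted p under 0.1 or with array weights; leaving out 1 array gave 0 to 2. At 4 months (1) they were 0 with trend and robust settings or a fold of at least 1.5, 2 with median centring, genes above the median signal, an adjusted p under 0.1 or without the Xist arrays, and 3 with array weights; leaving out 1 array gave 0 to 2. With age in null (12) they were 5 at a fold of 1.5, 6 with the lens and 1 with the pigment epithelium covariate; leaving out 1 array gave 8 to 12. With age in WT (5) they were 3 with median centring, trend and robust settings or the replicate block, 2 without the Xist arrays or with the pigment epithelium covariate, 1 with only the arrays compared and 0 at a fold of 1.5; leaving out 1 array gave 2 to 6, with 2 or 3 without WT replicates 2, 3 or 4 of 2 weeks or any WT array of 4 months. The interaction (0) gave 3 with array weights, and 0 to 1 on leaving out 1 array (1 without WT replicate 1 of 2 weeks).

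Over all genes, the 214 at 2 weeks became 43 with only the arrays compared, 408 at an adjusted p under 0.1, 137 at a fold of 1.5, 63 with the lens and 20 with the pigment epithelium covariate, 491 with array weights, and 77 to 525 on leaving out 1 array. Of them 59.8% were higher in null, against 42.4% after quantile normalization. The 83 at 4 months became 129 at an adjusted p under 0.1, 200 with array weights, and 50 to 126 on leaving out 1 array. The 1947 with age in null became 826 at a fold of 1.5, 1106 with the lens and 101 with the pigment epithelium covariate, 3500 with array weights, and 1288 to 2655 on leaving out 1 array. The 1861 with age in WT became 855 with only the arrays compared, 2797 at an adjusted p under 0.1, 677 at a fold of 1.5, 1094 with the pigment epithelium covariate, 2903 with array weights, and 1117 to 2606 on leaving out 1 array. The 2 of the interaction became 10 without the Xist arrays, 1 with the lens and 0 with the pigment epithelium covariate, 38 with array weights, and 2 to 20 on leaving out 1 array. Among the fits that leave out 1 array, the highest of these counts came in each of these contrasts without WT replicate 1 of 2 weeks. The causes were not tested.

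The labels do not say whether replicate numbers pair the arrays. Over all genes, residuals of same-numbered null and WT arrays correlated at -0.28 to 0.23. The lens mean at 2 weeks ranked the replicates in the same order in both genotypes, and shared handling by number was not tested. With the replicate block the members called were 1 at 2 weeks, 1 at 4 months, 10 with age in null, 3 with age in WT and 0 for the interaction, where calls over all genes were 0 as well. Signal over background was not measured, so low members and low pathway genes such as Txnip have no detection limit.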
